A study of Mus musculus with 4 samples.

Results

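The collagen genes of mouse endothelial cells (ECs) were compared between the dura mater and the brain parenchyma. Members were all entries whose symbol was Col, a number, the letter a and a number, which gave 44 of the 23282 entries counted. They fell into 11 chains of fibrillar collagens, 8 of basement membrane collagens and 25 of other kinds. Collagens are triple helices of alpha chains, and each gene encodes 1 chain. Fibrillar collagens build the tensile fibres of connective tissue and come mainly from fibroblasts, whereas type IV collagen forms the sheet-like network on which ECs rest. Collagens XV and XVIII sit in the basement membrane zone of vessels, and their C-terminal fragments are known as inhibitors of vessel growth.

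Both groups were ECs of C57BL/6J mice at 8 weeks of age for which the labels name no injury or treatment, with 2 libraries of brain parenchyma ECs and 2 of dura mater ECs. According to the methods of the study, tissue was digested with collagenase and dispase, red cells were lysed, and living single cells were sorted by flow cytometry with antibodies to CD31 (endothelium), CD45 (leukocytes) and TER-119 (red cells), after a CD31 bead enrichment in the case of the brain alone. The bead step therefore cannot be told apart from the tissue. The libraries were of the QuantSeq kind, which samples transcripts near their 3′ ends, so a long chain does not collect more reads than a short one. The sources used here do not say how many mice stand behind a library, and p-values below measure the spread between libraries, which may be technical.

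The libraries held 13518973 to 16096203 counts. All 12 endothelial markers listed for the check, led by Esam, Egfl7 and Pecam1, reached at least 64 counts in each library, and together they took 0.923% to 1.35% of counts. One of them, Cldn5, was lower in dura mater ECs, with 18081 and 17419 counts in brain ECs against 2857 and 3836 (edgeR adjusted p 0.0388). Replicates differed widely: the common biological coefficient of variation was 1.39, and some collagen genes that were well counted in 1 library were almost missing from its replicate. Globin and Alas2 transcripts of red cells took 2.66% and 3.63% of the brain EC counts against 0.218% and 0.114% in dura mater ECs, with Hba-a1, Hbb-bs and Hbb-b1 the most counted, the last of which are near-identical copies that may share reads. As these are bulk samples, fewer cells of a type and less RNA per cell cannot be told apart.

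Collagen genes took up more of the dura mater EC libraries than of the brain EC libraries. In brain ECs they held 0.0853% (95% Wilson interval 0.0839 to 0.0869) and 0.108% (0.106 to 0.110) of all counts in replicates 1 and 2. In dura mater ECs they held 0.235% (0.233 to 0.238) and 0.308% (0.305 to 0.311). The groups did not overlap, and the means were 0.0966% ± 0.0159 and 0.272% ± 0.0516 (SD, n = 2), a ratio of 2.81. With 2 libraries against 2 no exact permutation test can pass the usual threshold, so no p-value is given for this share, and the intervals cover counting error only.

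The make-up of the collagen counts differed as well. Col4a1 and Col4a2, the chains of the vascular type IV network, made up 95.9% and 85.1% of collagen counts in the brain EC libraries. In the dura mater EC libraries they made up 47.9% and 57.5%. Fibrillar chains accounted for 1.13% and 4.51% of collagen counts in brain ECs, against 18.0% and 12.6% in dura mater ECs. The 25 genes of other kinds had 358 and 486 counts in all, against 6191 and 7963. The collagen counts of brain ECs were thus mostly type IV, while those of dura mater ECs also held collagen XV, fibrillar chains and several minor collagens.

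**Figure D1:**
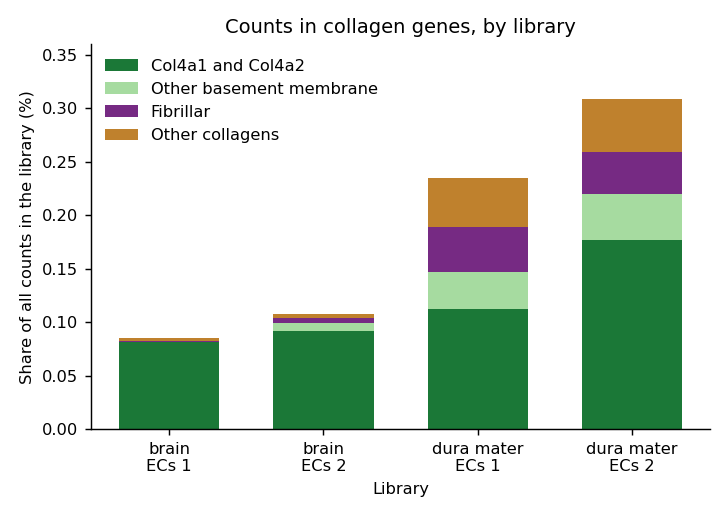
Share of all counts of a library, in percent, that fell on collagen genes, with 1 bar per library stacked by kind of collagen. The 2 brain EC bars reach 0.0853% and 0.108% and are 95.9% and 85.1% Col4a1 and Col4a2, whereas the dura mater EC bars reach 0.235% and 0.308% with visible fibrillar and other parts.

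Detection followed the same pattern. Of the 44 members, 18 had 0 counts in each of the 4 libraries (40.9%, against 41.3% of all entries), among them Col2a1, Col11a1 and Col10a1 of cartilage and Col7a1 of skin. At least 64 counts were reached by 3 and 5 members in the brain EC libraries and by 15 and 18 in the dura mater EC libraries. In both brain libraries together 2 members did so (4.55%, against 21.9% of all entries), and in both dura mater libraries 14 did (31.8%, against 28.6%). The share of the family so counted was below the background in brain ECs and close to it in dura mater ECs. With at most 7 counts in each brain library, 5 members reached 64 in each dura mater library (11.4%), against 3.27% of all entries and 8.14% of genes tested. Over all 44 members, 16 had each dura mater library above both brain libraries (36.4%, against 12.7% of all entries), and 1, Col17a1, had the reverse order after scaling to library size (7.54% of all entries), from 9 and 1 counts against 1 and 0.

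**Figure D2:**
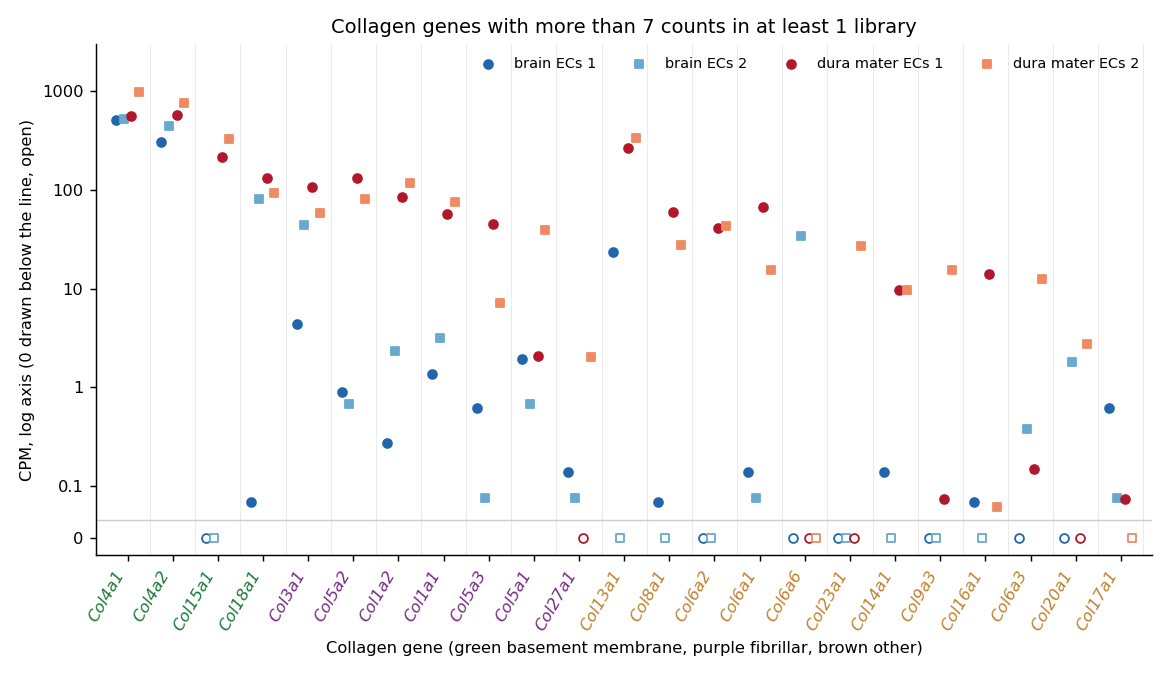
Counts per 1000000 (CPM, scaled by the trimmed-mean library size) in each of the 4 libraries, on a log axis, for the 23 collagen genes with more than 7 counts in at least 1 library, with open symbols for 0 counts. Col4a1 and Col4a2 lie between 308 and 981 CPM in all libraries, while most other members are near or at 0 in brain ECs.

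Among the basement membrane collagens, Col4a1 stood at 509 and 517 CPM in the brain and at 564 and 981 CPM in the dura, from 6836 to 16010 counts a library. Its partner Col4a2, which joins 2 Col4a1 chains in the type IV trimer, stood at 308 and 441 CPM in the brain and at 571 and 766 CPM in the dura. For either gene both dura mater libraries lay above both brain libraries, but for Col4a1 the lower dura mater value stood close to the brain values. The means were 513 ± 5.18 and 772 ± 295 CPM for Col4a1 and 374 ± 94.2 and 669 ± 138 CPM for Col4a2 (SD, n = 2). The log2 fold change of dura mater over brain was 0.59 for Col4a1 (SE 0.39, 95% interval −0.36 to 1.54, edgeR adjusted p 0.760). It was 0.84 for Col4a2 (SE 0.39, 95% interval −0.11 to 1.78, edgeR adjusted p 0.497). Neither passed the test, and the intervals leave room for anything from a slightly lower level to one about 1.5 to 1.8 log2 units higher in dura mater ECs.

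The genes of the type IV chains stand in pairs, head to head, in the genome. Col4a1 (chromosome 8, 11198423 to 11312826, minus strand, GRCm38) and Col4a2 (chromosome 8, 11312805 to 11449287, plus strand) overlap by 22 bases at their starts in the GENCODE annotation, so that 1 stretch of DNA serves as the promoter of both. Their start regions are printed here because these are the only 2 collagen genes with at least 64 counts in each of the 4 libraries, and that of Col15a1, the collagen gene that passed the test, is set beside them. Each window runs from 250 bases before to 50 bases after the RefSeq start on GRCm38.p6, 5′ to 3′ on the strand of the gene. Capitals mark motifs, searched for on both strands. A GC box was read as GGGCGG. The second motif was the CCAAT box, by its own letters, and a TATA box was read as TATAAA. No match overlapped another.
Col4a1 (chr8:11312777-11313076, minus strand): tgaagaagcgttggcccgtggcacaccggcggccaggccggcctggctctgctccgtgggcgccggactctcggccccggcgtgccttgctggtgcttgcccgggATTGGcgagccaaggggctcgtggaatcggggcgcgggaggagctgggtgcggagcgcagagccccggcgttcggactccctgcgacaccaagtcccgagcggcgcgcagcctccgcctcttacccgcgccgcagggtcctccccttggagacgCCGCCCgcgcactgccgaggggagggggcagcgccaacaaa
Col4a2 (chr8:11312555-11312854, plus strand): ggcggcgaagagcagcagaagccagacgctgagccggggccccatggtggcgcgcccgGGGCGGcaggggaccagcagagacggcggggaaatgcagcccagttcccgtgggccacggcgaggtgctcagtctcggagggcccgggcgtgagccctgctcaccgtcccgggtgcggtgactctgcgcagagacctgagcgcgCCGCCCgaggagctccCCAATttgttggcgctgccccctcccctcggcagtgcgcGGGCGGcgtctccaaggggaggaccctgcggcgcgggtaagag
Col15a1 (chr4:47207762-47208061, plus strand): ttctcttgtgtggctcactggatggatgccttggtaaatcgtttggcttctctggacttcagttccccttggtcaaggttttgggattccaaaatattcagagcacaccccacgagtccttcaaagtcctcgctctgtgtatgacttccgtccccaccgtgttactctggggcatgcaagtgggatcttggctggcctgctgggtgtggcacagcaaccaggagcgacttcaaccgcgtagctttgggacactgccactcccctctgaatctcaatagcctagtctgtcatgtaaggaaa
The windows of Col4a1 and Col4a2 share 78 bases and have a GC content of 74.0% and 73.7%, with 37 and 33 CpG dinucleotides. Col15a1 is at 52.3% GC with 8 CpG dinucleotides, near the medians of 52.7% and 7 over all 32851 RefSeq windows. Its window ends at 47208061, before the GENCODE start at 47208161, whereas the other windows hold the GENCODE starts of their genes. The letters given for Col15a1 thus hold for the RefSeq start only. Col4a1 has 1 GC box and 1 CCAAT box, Col4a2 has 3 and 1, and Col15a1 has none of the motifs. The GC box of Col4a1 lies in the 78 shared bases and is the last GC box of the Col4a2 window, read on the other strand. In all windows a GC box is found in 35.7%, a CCAAT box in 37.4% and a TATA box in 13.6%, and in the 38 windows of 35 collagen genes in 60.5%, 34.2% and 13.2%. These matches describe the letters only.

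Col15a1 (chromosome 4, 47208161 to 47313167, plus strand) showed the sharpest contrast. It had 0 counts in both brain EC libraries, which allows up to 0.207 and 0.227 CPM, and 2872 and 5366 counts, or 214 and 329 CPM, in the dura mater EC libraries. Both dura mater values lay far above that limit. The mean was at least 1197-fold higher than the brain limit (edgeR adjusted p 0.0248). Its log2 fold change of 10.93 (SE 0.95) depends on the prior count. It passed in each of the 13 alternatives that could be fitted, with adjusted p from 1.83e-20 to 0.0413. Of the 16 collagen genes tested it was the only one called, where 0.428% of all genes tested were called as higher and 0.610% in either direction. Col15a1 passed the filter on low counts in the dura mater libraries alone, so this count is a description and no support for a difference.

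Col18a1, which encodes the precursor of endostatin, had 1 and 1065 counts in the brain EC libraries and 1780 and 1520 in the dura mater EC libraries. In CPM these were 0.0690 and 80.5 against 133 and 93.1. Brain replicate 2 was close to the dura mater libraries while brain replicate 1 was almost empty, so the tissues could not be told apart (log2 fold change 1.48, SE 2.11, edgeR adjusted p 1.00). Without brain replicate 2 the log2 fold change was 9.08, and without brain replicate 1 it was 0.45, which were the highest and lowest values over the alternatives. Each of these fits rests on 1 brain library. The remaining type IV chains, Col4a3 to Col4a6, which serve in kidney, lung and other specialised basement membranes, were absent or nearly so. Col4a3 had 7 counts in brain replicate 1, Col4a6 had 1 count in dura mater replicate 1, and Col4a4 and Col4a5 had none.

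Of the 11 chains of fibrillar collagens, 6 passed the filter on low counts and all 6 were higher in both dura mater libraries than in both brain libraries, against 26.2% of all genes tested. None passed edgeR's test after adjustment (adjusted p from 0.199 to 0.926), and 2 (Col5a2 and Col1a2) had an unadjusted p under 0.05, against 7.04% of all genes tested as higher. The filter asks for about 0.707 CPM in at least 2 libraries. Of the 6 chains, 4 reached it in both dura mater libraries but not in both brain libraries. Among these 4, Col5a3 alone was under it in each brain library, with 9 and 1 counts. The count of chains is thus a description and no support for a difference.

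Col1a1 and Col1a2, the chains of type I collagen of dura, tendon and bone, were counted in each library. Col1a1 stood at 1.38 and 3.17 CPM in the brain and at 56.6 and 75.8 CPM in the dura. Col1a2 was at 0.276 and 2.34 CPM against 84.6 and 117 CPM. Both chains were low in each brain library and high in each dura mater library, with log2 fold changes of 4.78 (SE 1.98, edgeR adjusted p 0.466) and 6.13 (SE 1.82, edgeR adjusted p 0.357). The adjusted p of Col1a2 lay between 6.16e-04 and 0.799 across alternatives, and it passed without brain replicate 1 (0.0219), without brain replicate 2 (6.16e-04) and in DESeq2 (0.00135). For Col1a1 it passed in DESeq2 (0.0477; from 0.0477 to 0.989 over the alternatives).

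Col3a1, the chain of type III collagen of vessel walls and reticular fibres, was the fibrillar chain most seen in brain ECs. It had 63 and 579 counts there, or 4.35 and 43.8 CPM, and 108 and 58.9 CPM in the dura. The second brain library came close to the second dura mater library (log2 fold change 1.79, SE 1.53, edgeR adjusted p 0.926). Its neighbour Col5a2, whose 3′ end faces that of Col3a1 across 24614 bases on chromosome 1, was much lower in the brain. Col5a2, a chain of the type V collagen that starts fibril assembly, stood at 0.897 and 0.680 CPM in the brain and at 131 and 81.1 CPM in the dura. The log2 fold change was 6.84 (SE 1.54, 95% interval 3.11 to 10.57), with an edgeR adjusted p of 0.199, the smallest among the fibrillar chains. Of the alternatives with all 4 libraries, Col5a2 passed in DESeq2 (adjusted p 1.93e-05) and without a filter on low counts (edgeR adjusted p 0.0397), and in no other. In fits with 1 brain library its log2 fold change was 6.99 without brain replicate 1 and 6.64 without brain replicate 2.

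The other chains of type V collagen were uneven between the dura mater libraries. Col5a1 stood at 1.93 and 0.680 CPM in the brain and at 2.09 and 39.4 CPM in the dura, so its higher mean rests on dura mater replicate 2 (log2 fold change 3.85, SE 3.05, edgeR adjusted p 0.885, and 0.61 on the log2 scale without that library). Col5a3 was at 0.621 and 0.0756 CPM against 45.0 and 7.23 CPM, here with replicate 1 the higher (log2 fold change 5.75, SE 3.13, edgeR adjusted p 0.602, and 3.80 on the log2 scale without dura mater replicate 1). Col27a1 had 2, 1, 0 and 33 counts and was not tested. Col2a1, Col11a1, Col11a2 and Col24a1 had 0 counts throughout.

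Markers of fibroblasts, the cells that make most fibrillar collagen, had a higher sum in dura mater ECs, but most single markers overlapped between the tissues. The 12 markers summed to 0.00269% and 0.00245% of counts in brain ECs and to 0.0160% in each dura mater library, and 1, 1, 3 and 6 of them reached 64 counts. Of the 4 that could be tested none was called (lowest edgeR adjusted p 0.271). An unadjusted p under 0.05 was found for 2, both higher in dura mater ECs, against 7.04% of all genes tested as higher. As 2 of the 4 passed the filter in the dura mater libraries alone, this count is a description. Over all 12, 3 had both dura mater libraries above both brain libraries (12.7% of all entries) and 8 overlapped. The 1 with them below (7.54% of all entries) was Pdgfra, with at most 1 count in any library. Decorin (Dcn), which binds collagen fibrils, had 16 and 15 counts against 1184 and 1664, and Igfbp6 had 1 and 0 against 480 and 356. Pi16 had 365 and 0 counts in brain ECs against 1 and 196. Of markers named after their values were seen, Lamc3 had 310 of the 338 fibroblast marker counts of brain replicate 2 and 0 elsewhere. Dpt had 0 and 3 counts against 434 and 0. The receptor Pdgfra had 1, 1, 0 and 1 counts, Lum 3, 3, 4 and 0, and Fbln1 1, 0, 1 and 0. At 0 were 5 of the 12 in each brain library, against 3 and 5 in the dura. The part of fibroblast RNA in the fibrillar counts was not tested.

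Mural cells, the smooth muscle cells and pericytes of the vessel wall, also make collagen. Their 12 markers summed to 0.0766% and 0.113% of counts in brain ECs and to 0.124% and 0.0722% in dura mater ECs, and the groups overlapped. Of the 12, all tested, 9 had a log2 fold change above 0, where 49.8% of all genes tested did, and none was called. Both dura mater libraries lay above both brain libraries in 4 (26.2% of all genes tested) and below in 1 (16.9%), and 7 overlapped. The filter minimum was reached in both dura mater libraries but not in both brain libraries by 6 of them, and the other way round by 1. Acta2, Myh11 and Tagln led the list with 2276 to 10644 counts in brain ECs for the first 2 and 57 to 772 for Tagln. In dura mater ECs they had 1929 to 7580 and 1170 to 2418 counts. Of markers named after their values were seen, Kcnj8 had 0 and 0 counts against 468 and 410. Cspg4 had 0 and 1 against 263 and 65, and Notch3 had 5 and 0 against 99 and 254. Des, also named after its values were seen, went the other way, with 1056 and 1350 counts against 412 and 284. The part of mural cell RNA was not tested.

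Bone and cartilage markers, listed because the dura lies on the skull, summed to 0.0149% and 0.0101% against 0.0166% and 0.0150%, and 6 of the 10 had 0 counts in each library. Alpl led them with 2145 and 1388 counts against 1227 and 2199, Runx2 had 820 counts in dura mater replicate 1 against 1, 0 and 0, and Sox9 had 4 and 8 against 18 and 207. Leukocyte markers stayed at or under 0.00504% in each library. Cd68 had 4 and 3 counts against 550 and 441, while Csf1r had 4 and 646 against 28 and 9, and Itgam had 1 and 2 against 87 and 0. Ptprc, the CD45 gene of the sort gate, had 1 to 4 counts. Glial and neuronal markers were at or under 0.0263%, with Mbp at 1476 and 4 counts against 1027 and 6, Slc1a3 at 1 and 1 against 915 and 74, and Slc1a2 at 1 and 0 against 863 and 87. None of these 3 lists had a called gene, and their part in the collagen counts was not tested.

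Of the 25 genes of other collagens, 6 passed the filter. Its minimum was reached in both dura mater libraries but not in both brain libraries by 5 of them. Also 5 had both dura mater libraries above both brain libraries, against 26.2% of all genes tested. None passed the edgeR test after adjustment, and 3 (Col6a1, Col6a2 and Col8a1) had an unadjusted p under 0.05, against 7.04% of all genes tested as higher. As most passed only where they are high, these counts are a description. The most counted was Col13a1, a transmembrane collagen of cell-matrix adhesion sites (chromosome 10, 61838236 to 61979108, minus strand). It had 338 and 0 counts in the brain EC libraries and 3598 and 5442 in the dura mater EC libraries, or 23.3 and 0 against 268 and 333 CPM. Both dura mater libraries were high, and the brain libraries differed from each other. The log2 fold change was 4.67 (SE 2.11, edgeR adjusted p 0.479). Without brain replicate 1 it was 11.06 and without brain replicate 2 it was 3.61, each from a fit with 1 brain library. With all 4 libraries Col13a1 passed in DESeq2 (adjusted p 0.0218) and in 3 edgeR variants. These were the fit without a filter on low counts (adjusted p 1.77e-05), the newer dispersion estimate (2.49e-04) and the replicate block (0.0301). It did not pass in limma-voom or with other scalings.

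Type VI collagen forms beaded filaments between cells and the surrounding matrix. Col6a1 had 2 and 1 counts in the brain and 910 and 252 in the dura, a ratio of 370 over the summed libraries (exact 95% interval 126 to 1796, counting error only). Col6a2 had 0 and 0 against 548 and 711 counts which puts the dura at least 186-fold higher. Both chains were at or near 0 in each brain library and well counted in each dura mater library, with log2 fold changes of 7.41 (SE 2.72, edgeR adjusted p 0.466) and 8.25 (SE 2.51, edgeR adjusted p 0.416). In DESeq2 both passed (adjusted p 0.00341 and 8.39e-04). Over the alternatives, the adjusted p of Col6a1 ran from 0.00341 to 0.969 and that of Col6a2 from 8.39e-04 to 0.799. The larger partner chain, Col6a3, had 0 and 5 counts against 2 and 204, so it was well counted in dura mater replicate 2 alone and was not tested. Col6a6 had 454 counts in brain replicate 2 and 0 in the other libraries. Its 3′ end lies 152 bases from that of Pik3r4 on the other strand, and whether the counting used strand is not given in the sources used here.

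Col8a1, a short-chain network collagen of vessel walls and of Descemet's membrane in the eye, had 1 and 0 counts in the brain and 809 and 452 in the dura. The summed ratio was 1204 (exact 95% interval 216 to 47601, counting error only). The log2 fold change was 7.99 (SE 2.71, edgeR adjusted p 0.445, 0.00196 in DESeq2 and up to 0.784 in other alternatives). Col8a2 had 0 counts in each library. Among the fibril-associated collagens, which coat fibrils without forming them, Col14a1 had 2 and 0 counts against 129 and 160. Its summed ratio was 138 (exact 95% interval 37.9 to 1145, counting error only), and it did not pass (edgeR adjusted p 0.580). Col16a1 appeared in dura mater replicate 1 alone, with 189 counts against 1, 0 and 1 elsewhere. In dura mater replicate 2 alone appeared Col23a1, a transmembrane collagen, with 443 counts, and Col9a3, with 253 counts and 1 in the other dura mater library. Exons of Tcfl5 on the other strand overlap 6.07% of the exon length of Col9a3, so its count is uncertain. Col20a1 had 0 and 24 counts against 0 and 45, and its log2 fold change (0.54 with SE 2.93, edgeR adjusted p 1.00) turned negative without brain replicate 1 or dura mater replicate 2. It lies 17 bases from the 3′ end of Chrna4. Col12a1 had 5 and 1 against 4 and 0.

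Taking the tested members as a whole, all 16 had a log2 fold change above 0, where 49.8% of the 9347 genes tested did, and the median was 5.17 against −0.01 over all genes. This description carries the filter described above. Of the 16, 11 reached the count minimum in both dura mater libraries but not in both brain libraries, and none the other way round. Col18a1, with 1 and 1065 counts in the brain, and Col13a1, with 338 and 0, are among the 11. In 15 of the 16 both dura mater libraries lay above both brain libraries (26.2% of all genes tested) and in none below (16.9%). At an unadjusted p under 0.05 there were 6 of 16 members higher in dura mater ECs, where 7.04% of all genes tested were, and 0 lower, where 2.97% were. DESeq2 called 8 members, Col5a2, Col13a1, Col6a2, Col6a1, Col1a1, Col8a1, Col15a1 and Col1a2, all higher, where it called 6.63% of all genes tested as higher and 8.67% in either direction. limma-voom called 1 member, against 0.428% of all genes as higher and 0.856% in either direction. edgeR called Col13a1 and Col15a1 with the newer dispersion estimate (background 1.94% higher and 3.27% either way) and with the replicate numbers as a block (1.42% and 2.40%). It called Col5a2, Col13a1 and Col15a1 without a filter on low counts (1.43% and 2.39%). The 4 members with enough counts in both tissues to pass on either one were Col4a1, Col4a2, Col3a1 and Col1a1, and their log2 fold changes were 0.59, 0.84, 1.79 and 4.78.

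**Figure D3:**
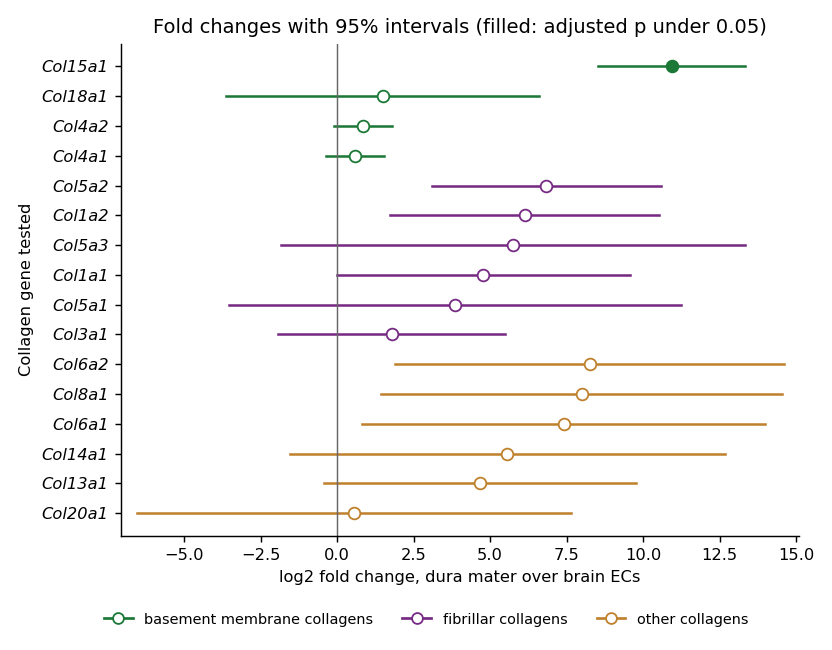
Log2 fold change of dura mater over brain ECs with its 95% interval, from edgeR, for the 16 collagen genes tested, coloured by kind and filled where the adjusted p was under 0.05. Col15a1 at 10.93 is the filled point, Col4a1 and Col4a2 have the narrowest intervals, from −0.36 to 1.54 and from −0.11 to 1.78, and the intervals of Col5a2, Col1a2, Col6a2, Col8a1 and Col6a1 lie above 0 without passing after adjustment.

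Genes that make, cut, bind and break down collagen were read in the same fit. Of 67 such genes with an entry, 39 were tested and none was called by edgeR (0.610% of all genes tested were, in either direction). In edgeR 8 had an unadjusted p under 0.05, all higher in dura mater ECs (against 7.04% of all genes tested). DESeq2 called 8 and limma-voom 1, against 8.67% and 0.856% of all genes tested in either direction. As 17 of the 39 reached the filter minimum in both dura mater libraries but not in both brain libraries, these counts are a description. Of the enzymes and chaperones that hydroxylate, glycosylate and fold the chains in the endoplasmic reticulum, 18 of 22 were tested. Of these 18, 5 reached the filter minimum in both dura mater libraries but not in both brain libraries. None was called, and 12 had a log2 fold change above 0, where 49.8% of all genes tested did, with a median of 0.69. Serpinh1, the collagen chaperone HSP47, averaged 228 ± 180 CPM in the brain against 387 ± 65.7 CPM in the dura (SD, n = 2). P4hb, a subunit of prolyl hydroxylase, was at 211 ± 40.6 and 274 ± 107 CPM, the lysyl hydroxylase Plod1 at 108 ± 9.81 and 208 ± 38.9 CPM, and the glycosyltransferase Colgalt2 at 226 ± 108 and 122 ± 63.9 CPM. Chosen after their values were seen, P3h3, a member of the prolyl 3-hydroxylase family, had 0 and 0 counts against 349 and 322, and Fkbp10, a prolyl isomerase for procollagen, had 7 and 0 against 537 and 711.

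Of the enzymes that trim procollagen and cross-link the fibres, all 8 tested had a log2 fold change above 0 (49.8% of all genes tested), with a median of 2.15, and 5 had both dura mater libraries above both brain libraries (26.2%). As 6 of the 8 reached the filter minimum in both dura mater libraries but not in both brain libraries, these counts are a description. None was called. Tgm2, a transglutaminase, was the most counted, averaging 1558 ± 561 CPM in the brain against 2746 ± 38.7 CPM in the dura (log2 fold change 0.82, SE 0.33, edgeR adjusted p 0.466). Pcolce, which speeds the removal of the procollagen C-propeptide, had 2 and 3 counts against 1147 and 371 (log2 fold change 7.40, SE 2.47, edgeR adjusted p 0.432). Lox, the cross-linking lysyl oxidase, had 456 and 5 counts against 1067 and 398. Pxdn, the peroxidase that cross-links type IV collagen, had 12 and 265 against 173 and 1083, and in both genes the tissues overlapped.

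None of the collagen receptors was called. Itgb1, the beta chain of the collagen-binding integrins, averaged 852 ± 192 CPM in the brain against 1138 ± 40.4 CPM in the dura (log2 fold change 0.42, SE 0.32, edgeR adjusted p 0.873). Adgrg1, a receptor for type III collagen, was at 819 ± 438 and 622 ± 24.6 CPM, and Ddr2, a receptor tyrosine kinase for fibrillar collagen, had 3 and 1451 counts against 403 and 816. The alpha chain Itga1, which pairs with Itgb1 to bind type IV collagen, had 362 and 15 counts against 590 and 411. None of the 5 receptors tested had an unadjusted p under 0.05, and their median log2 fold change was 0.42.

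Among the enzymes that degrade collagen, Mmp14, the membrane-bound collagenase of sprouting vessels, had 3 and 7 counts in the brain and 1446 and 2099 in the dura. Both dura mater values were high, and the log2 fold change was 7.87 (SE 1.51, edgeR adjusted p 0.126). Mmp2, a gelatinase that Mmp14 activates, had 1 count in each brain library and 676 and 442 in the dura (edgeR adjusted p 0.466). Mmp15 had 1 and 993 counts against 0 and 551, with no order between the tissues, and Mmp13 was counted in dura mater replicate 2 alone (365 counts).

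Of the proteins that bind collagen, biglycan (Bgn), a small proteoglycan of fibrils, averaged 186 ± 84.6 CPM in the brain against 987 ± 118 CPM in the dura. Its log2 fold change was 2.41 (SE 0.45, edgeR adjusted p 0.119). Tgfbi had 7 and 13 counts against 1130 and 704 (log2 fold change 6.19, SE 2.17, edgeR adjusted p 0.466), and decorin, which is also on the fibroblast list, was 6.24 log2 units higher in the mean (SE 1.62, edgeR adjusted p 0.271). Sparc, a collagen-binding matrix protein secreted by ECs, went the other way in its mean, at 3037 ± 980 against 1965 ± 543 CPM, but the libraries overlapped (edgeR adjusted p 0.622).

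**Figure D4:**
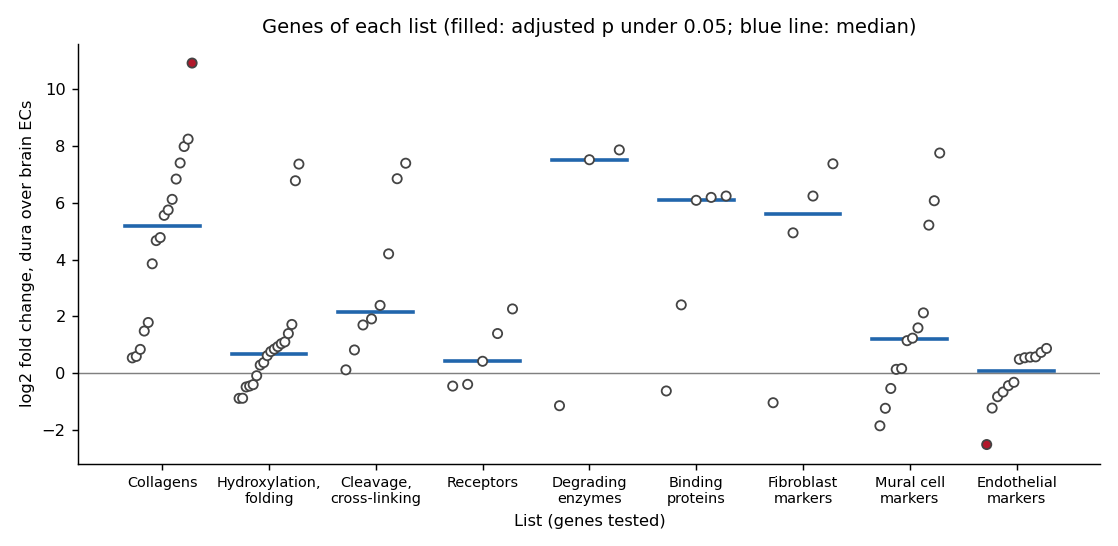
Log2 fold change of dura mater over brain ECs for each gene tested, as points, for the collagens, 5 lists of genes that act on collagen and 3 lists of cell markers, with the median of each list as a blue line and called genes filled. The median is 5.17 for the collagens, 0.69 for the hydroxylation and folding list, 2.15 for the cleavage and cross-linking list and 0.42 for the receptors. It is 7.52 for the degrading enzymes (3 tested), 6.09 for the binding proteins (5 tested) and 5.59 for the fibroblast markers (4 tested). The mural cell markers are at 1.19 and the endothelial markers at 0.08. The filled points are Col15a1, higher in dura mater ECs, and the endothelial marker Cldn5, lower there (log2 fold change −2.52). The lists differ in how many genes reached the filter minimum in both dura mater libraries but not in both brain libraries. These were 11 of 16 collagens and 5 of 18 hydroxylation and folding genes, so the medians are not compared.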

How the data were processed

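The 4 deposited tables, 1 per library, pair gene symbols with raw counts. The authors sequenced QuantSeq 3′ libraries, and per the labels the processing notes name Bowtie2, edgeR and mm10 (GRCm38), while the methods name TopHat and cufflinks. The counting tool, annotation and use of strand are not given in the sources used here. Libraries held 13518973 to 16096203 counts and 9622 of 23282 entries were at 0 throughout; 79 lines share a symbol with another line, none of them a collagen.

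Groups came from the titles. edgeR 4.0.16 (quasi-likelihood test, R 4.3.3) was run on all genes with trimmed-mean normalization, filterByExpr, tissue as the only term, a prior count of 2 and Benjamini-Hochberg adjustment over 9347 genes, in place of cufflinks, which needs alignments. Adjusted p under 0.05 was a call. SE is the log2 fold change over the square root of F. Folds against 0 counts used 3 counts per library. Shares have Wilson intervals, and summed ratios exact ones (scipy 1.17.1). Positions are from GENCODE M21 and promoters from RefSeq, with windows for 35 of 44 members.

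Alternatives were DESeq2 1.42.0, limma-voom (limma 3.58.1), other scalings, filters and dispersion estimates, a replicate block, and each library left out. Scripts were tested on simulated data. Named were all tested collagens, called genes and at most the 4 highest by mean CPM of each partner list, and at most the 3 highest of each marker list; other genes are said to be named after their values were seen, save Cldn5, the called endothelial marker, and Ptprc, the gated one. Members and lists were chosen with earlier results of these data known.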

Additional observations from a re-analysis of the deposited data

How the results depend on the processing

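Against 57 genes, 1 collagen gene (Col15a1) and 0 partner genes called by edgeR, DESeq2 called 810, 8 and 8, the fit without a filter on low counts 326, 3 and 2, the newer dispersion estimate 306, 2 and 2, and a minimum of 10 counts in every library 141, 0 and 2, the last because Col15a1 and 11 other members are left out. limma-voom called 80, 1 and 1. With 1 library left out, the lone library is assumed to vary like the other tissue: calls ran from 80 (without dura mater replicate 1) to 740 (without brain replicate 1), with 701 without brain replicate 2 and 97 without dura mater replicate 2; collagen calls from 1 to 5 and partner calls from 0 to 5. The range of collagen calls is no result about collagens, since calls over all genes also rose in the fits without 1 brain library. These fits tested 22 and 21 collagens, without brain replicates 1 and 2 in turn, against 16 with all libraries.

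With the replicate block, edgeR called 224 genes, 2 collagens (Col13a1 with an adjusted p of 0.0301, and Col15a1) and 1 partner. Across genes, same-numbered libraries deviated from their group means with a correlation of −0.02, and nothing in the sources pairs them, so they share only a number. The log2 fold change of Col20a1 (0.54) turned in sign without brain replicate 1 (−0.44) and without dura mater replicate 2 (−2.86), and was 3.43 without brain replicate 2; the cause was not tested. No other of the 16 collagens tested in the main fit changed sign in any alternative. Without a filter on low counts, 22 of 26 collagens had a log2 fold change above 0, with a median of 4.43. The scalings moved the median log2 fold change of all genes to between −0.10 and 0.13, with that of the collagens between 5.10 and 5.28. Without the 10 most counted genes of each library in the denominator, the mean shares of fibrillar and other collagens in dura mater ECs were 0.0443% and 0.0520%, against 0.0406% and 0.0476%. Depth limits what can be said of members with under 64 counts, and the spread between 2 libraries limits the rest.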
